A study of Mus musculus with 9 samples.

Results

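The tumour suppressor gene Trp53 and 9 genes that its product p53 is known to switch on were measured in mouse embryonic stem (ES) cells that lack Zfp352, or Zfp352 together with Zfp353. The 10 genes were chosen by name (Trp53, Mdm2, Cdkn1a, Ccng1, Bax, Bbc3, Phlda3, Trp53inp1, Sesn1 and Zmat3) out of 24411 genes in the deposited tables. The choice was made with earlier results of these data known. All 10 passed the filter on low counts. Polyadenylated RNA was sequenced from 9 libraries, 3 for each of 3 genotypes of the EB5 line. Zfp352/Zfp353-DKO cells (DKO in what follows) had both genes deleted by CRISPR-Cas9, Zfp352-KO cells (KO) had Zfp352 alone deleted, and Parental cells were the unedited line. All 3 genotypes share the male E14tg2a origin, the 129Ola background and the Oct3/4IRES-BSD-pA/+ allele, and all grew on gelatin in serum with leukemia inhibitory factor. The labels do not state whether an edited genotype was 1 clone or several, or whether its libraries came from different dishes. The p-values below therefore weigh genotypes against the spread between libraries, which may be only technical.

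p53 is a transcription factor that is held at a low protein level by the ubiquitin ligase Mdm2, itself a p53 target, and that accumulates after DNA damage. It binds DNA as a tetramer on pairs of short elements and turns on genes for cell cycle arrest (Cdkn1a), apoptosis (Bax, Bbc3) and damped growth signalling (Sesn1, Phlda3). Mouse ES cells are known for abundant p53 protein and for a short G1 phase. p53 is regulated largely after transcription, so its RNA level does not measure its activity.

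Depth was 16599004 to 22044820 expected counts per library. Zfp352, the deleted gene, had 1, 1 and 3 expected counts in the DKO libraries, 3, 8 and 10 in the KO libraries and 47, 52 and 41 in the Parental libraries, which fits the labels, while Zfp353 was not analysed here. Its log2 fold change against Parental cells was -4.64 ± 0.42 (SE) in DKO and -2.65 ± 0.32 in KO cells (edgeR adjusted p = 8.0e-07 and 6.1e-05). The ES label fitted the summed level of 8 ES cell markers, at 6648 to 6743 TPM (a level scaled by transcript length and library depth) in DKO, 6540 to 6703 in KO and 6615 to 6748 in Parental libraries. Markers of other cell types moved with genotype: 9 trophectoderm and epithelial markers summed to 257 to 269 TPM in DKO, 289 to 293 in KO and 391 to 451 in Parental libraries, and 18 fibroblast-type markers to 502 to 553 TPM in DKO, 552 to 610 in KO and 615 to 654 in Parental libraries. Of the fibroblast-type markers, Lum was listed at 0 in the KO and Parental libraries. The 10 primitive endoderm markers summed to 159 to 171 TPM in DKO, 171 to 187 in KO and 209 to 214 in Parental libraries, and 9 markers of 2-cell-like cells to 192 to 212 TPM in DKO, 234 to 258 in KO and 199 to 208 in Parental libraries. The 2-cell-like sums hide opposite changes and include the deleted Zfp352. In DKO cells 0 rose and 3 of 9 fell (log2 fold changes -8.39 to 1.15), against 8.47% of all tested genes called. In KO cells 2 rose and 3 fell (-4.11 to 1.09), against 7.06%. Gm4340 was listed at 0 in the DKO libraries. In bulk RNA, fewer cells of a type and less RNA per cell cannot be told apart.

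The sequences just upstream of the genes are shown because the genes were grouped as p53 targets and because p53 response elements are short enough to read. RefSeq promoter windows of GRCm38.p6 (250 bases before to 50 bases after a transcript start) were present for 8 of the 10 genes, in 12 windows. Trp53inp1 and Zmat3 are named only. Each window was searched for the 10-base element of the p53 consensus, a pattern that is its own reverse complement and so covers both strands. An exact element was found in 6 of the 12 windows, those of 6 different genes, and in 8.36% of all 32851 windows of the table. Capitals below mark exact elements, and each stretch reads 5′ to 3′ on the strand of its gene. The Cdkn1a stretch comes from the first of its 2 windows.
Cdkn1a (chr17:29090729-29090978, plus strand, 250 to 1 bases before the start): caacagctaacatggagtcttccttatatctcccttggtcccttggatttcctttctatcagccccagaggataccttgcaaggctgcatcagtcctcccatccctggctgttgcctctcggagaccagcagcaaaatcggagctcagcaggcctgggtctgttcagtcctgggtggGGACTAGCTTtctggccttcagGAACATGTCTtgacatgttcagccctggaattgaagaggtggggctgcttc
Ccng1 (chr11:40755452-40755491, minus strand): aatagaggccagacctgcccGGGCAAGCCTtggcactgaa
Bax (chr7:45467069-45467109, minus strand): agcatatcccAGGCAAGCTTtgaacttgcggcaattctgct
Trp53 (chr11:69580274-69580313, plus strand): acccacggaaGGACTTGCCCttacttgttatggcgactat
Sesn1, second window (chr10:41887243-41887285, plus strand): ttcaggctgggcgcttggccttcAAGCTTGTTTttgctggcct
Mdm2 (chr10:117710925-117710954, minus strand): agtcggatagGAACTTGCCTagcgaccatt

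The first of the 2 Cdkn1a windows was the one member window with 2 exact elements, 12 bases apart, and 24 windows of the whole table (0.073%) held an exact pair within the 13-base gap allowed. Directly after the second of these elements stood another that missed the consensus at 1 position, and 0.067% of all windows had an abutting pair as close. The second Cdkn1a window, at a start further downstream, had no exact element. Its closest pair had 5 mismatches, and 68.719% of all windows had a pair as close. Ccng1 had an abutting pair with 1 mismatch in all. The closest pair had 2 mismatches in Bax and in the second Sesn1 window, 3 in Trp53 and in 2 of the 3 Bbc3 windows, and at least 4 in the others. A pair as close as that of Ccng1, at any gap allowed, was found in 0.627% of all windows, and a pair with at most 3 mismatches in 15.567%. The bases directly after the start of the 3 Bbc3 windows and of the Phlda3 window were not found in a GENCODE M21 transcript of the gene. The Bbc3 windows begin at chr7:16309333 or further downstream, and the gene itself at chr7:16308398. Positions in these windows therefore refer to unchecked starts. All these matches describe letters in a window and are not evidence of binding.

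**Figure D1:**
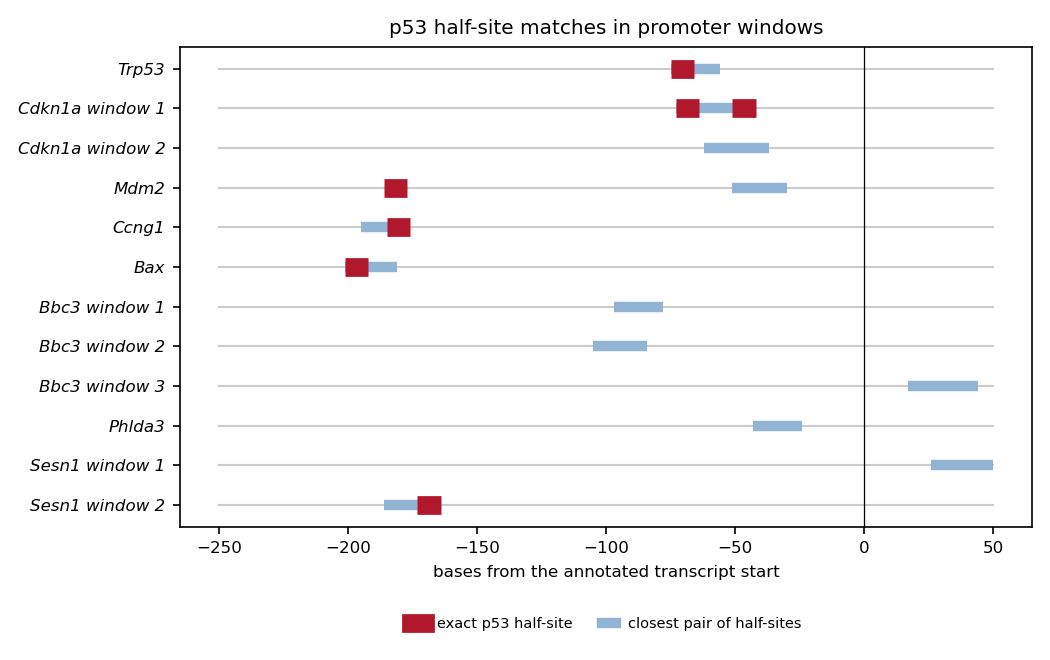
Position of p53 consensus elements in the 12 RefSeq promoter windows of 8 genes, in bases from the annotated transcript start (0). The starts of the Bbc3 and Phlda3 windows were not found in a GENCODE M21 transcript. Red blocks are exact 10-base elements and blue bars the closest pair of elements, with the exact pair of the first Cdkn1a window ending 42 bases before the start.

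All 10 genes were transcribed in all 3 genotypes, and their levels differed little between them. Summed over the 10 genes, expression was 1843 to 1874 TPM in DKO, 1825 to 1871 TPM in KO and 1783 to 1860 TPM in Parental libraries. Trp53 and Bax made up most of this sum (mean 795 and 507 TPM in Parental cells), so it says little about the other genes. Of the 10 genes, 1 rose in DKO cells (Trp53inp1) and 2 rose in KO cells (Trp53inp1 and Zmat3), each by less than 1.3-fold, and none was called lower. Of all 14300 tested genes, 8.47% were called in DKO (3.65% higher) and 7.06% in KO cells (3.43% higher). The classical arrest gene Cdkn1a and the apoptosis genes Bax and Bbc3 did not pass the test in either edited genotype.

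**Figure D2:**
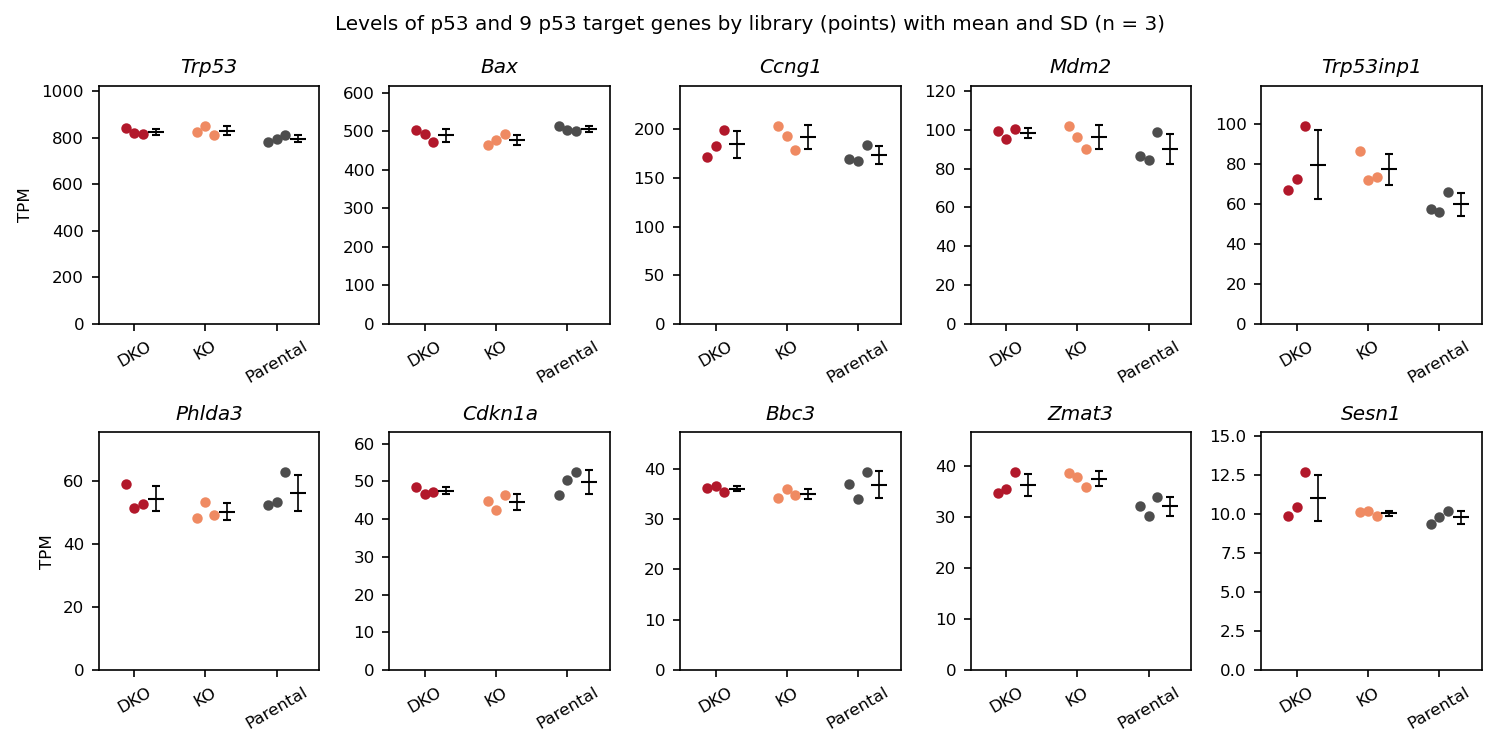
TPM of the 10 genes (y axis, each panel from 0) in DKO, KO and Parental libraries (x axis), with the mean and SD of 3 libraries beside the points. The groups lie close together in most panels, and all 6 edited libraries of Trp53inp1 (67.2 to 99.2 TPM) lie above the Parental ones (55.7 to 66.2 TPM).

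TPM divides by transcript length, so it also ranks the genes against each other. Trp53 was the most abundant member, at rank 149 of 24411 genes in DKO, 152 in KO and 156 in Parental cells, and Sesn1 the least, at rank 7748 in DKO, 7989 in KO and 7976 in Parental cells. In Parental cells Trp53 was followed by Bax, Ccng1, Mdm2, Trp53inp1, Phlda3, Cdkn1a, Bbc3, Zmat3 and Sesn1. Neighbours whose Parental libraries overlapped were Trp53inp1 and Phlda3, Phlda3 and Cdkn1a, and Bbc3 and Zmat3. In DKO and KO cells Zmat3 stood above Bbc3, with overlapping libraries in both, and in DKO cells the libraries of Mdm2 and Trp53inp1 overlapped too. The other neighbours did not overlap.

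Trp53 (chr11:69580348-69591873, plus strand) had 841, 818 and 816 TPM in DKO, 824, 852 and 813 TPM in KO and 782, 792 and 811 TPM in Parental libraries. The edited libraries were all above the Parental ones in TPM, by little, but in CPM (counts scaled to the TMM-adjusted library total, without length) the groups overlapped. By edgeR's quasi-likelihood test the log2 fold change was 0.01 ± 0.04 (SE) in DKO (Benjamini-Hochberg adjusted p = 0.895) and 0.02 ± 0.04 in KO cells (adjusted p = 0.871). The 95% interval of this fit was -0.08 to 0.11 in either comparison. Wrap53, which lies head to head with Trp53 within 1000 bases on the other strand, did not pass the test either, at -0.00 ± 0.06 in DKO and -0.04 ± 0.06 in KO cells on the log2 scale (adjusted p = 0.982 and 0.755 by edgeR). The library kit keeps the strand, but whether the counting used it is not given in the sources used here.

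Mdm2 (chr10:117688875-117710758, minus strand), which ubiquitinates p53 and closes the negative feedback loop, had 99.4, 95.3 and 101 TPM in DKO, 102, 96.6 and 90.2 TPM in KO and 86.6, 84.8 and 98.9 TPM in Parental libraries. Parental library 3 reached into the range of both edited genotypes. The log2 fold change of Mdm2 was 0.09 ± 0.05 in DKO (interval -0.02 to 0.20, edgeR adjusted p = 0.288) and 0.05 ± 0.05 in KO cells (interval -0.05 to 0.16, edgeR adjusted p = 0.580). A rise above 1.15-fold thus lay outside the interval in both genotypes.

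Cdkn1a (chr17:29090979-29100722, plus strand) encodes p21, the inhibitor of cyclin-dependent kinases through which p53 stops the cell cycle in G1. It had 48.6, 46.8 and 47.1 TPM in DKO, 44.7, 42.3 and 46.4 TPM in KO and 46.3, 50.5 and 52.4 TPM in Parental libraries. In TPM the DKO libraries fell within the Parental range. The KO libraries had the lowest mean TPM and overlapped the Parental ones at a single library each. In CPM the DKO libraries (49.6, 47.3 and 45.7) overlapped the Parental ones (47.7, 53.2 and 52.5), but DKO libraries 2 and 3 lay below them. The KO libraries (43.5, 42.1 and 47.4) did not overlap the Parental ones in CPM. The log2 fold change was -0.10 ± 0.06 in DKO (0.931-fold, interval 0.851 to 1.02, edgeR adjusted p = 0.313) and -0.21 ± 0.06 in KO cells (0.867-fold, interval 0.793 to 0.949, edgeR adjusted p = 0.0505). The KO value thus missed the threshold by a small margin. It passed it without DKO library 3 (edgeR adjusted p = 0.0315) and without KO library 3 (0.0271), and with library totals as the only scaling (0.0485). It also passed with no filter (0.0372), with a stricter filter (0.0477) and with only the 6 libraries compared (0.0432). It did not pass with RLE factors, DESeq2, limma on log2 TPM or a replicate block, or when any other single library was left out. Nor did it pass with the length trend described below removed (edgeR adjusted p = 0.152). Over 20 alternatives the adjusted p ran from 0.0271 to 0.214. GENCODE M21 places an unclassified transcript, AC167363.2, across 1046 bases of Cdkn1a on the other strand, and it was not analysed here.

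Ccng1 (chr11:40748552-40755309, minus strand) encodes cyclin G1, a p53 target that recruits a phosphatase to Mdm2. It had 171, 182 and 200 TPM in DKO, 204, 193 and 179 TPM in KO and 169, 167 and 184 TPM in Parental libraries, with both edited ranges overlapping the Parental one. Its log2 fold change was 0.05 ± 0.05 in DKO (edgeR adjusted p = 0.608) and 0.10 ± 0.05 in KO cells (edgeR adjusted p = 0.230), and the intervals ended at 1.11-fold and 1.15-fold.

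Bax (chr7:45461695-45466903, minus strand), the pore-forming protein of the mitochondrial path to apoptosis, had 503, 494 and 472 TPM in DKO, 466, 478 and 492 TPM in KO and 515, 505 and 501 TPM in Parental libraries. The KO libraries lay under all Parental ones in TPM but overlapped them in CPM, and the DKO libraries overlapped them in both. The log2 fold change of Bax was -0.09 ± 0.05 in DKO (edgeR adjusted p = 0.306) and -0.13 ± 0.05 in KO cells (edgeR adjusted p = 0.141). In DKO cells its sign turned to 0.02 when the length trend described below was removed.

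Bbc3 (chr7:16308398-16318334, plus strand) encodes PUMA, which binds the anti-apoptotic BCL2 proteins and so frees Bax to act. Its levels were 36.1, 36.5 and 35.4 TPM in DKO, 34.1, 36.0 and 34.7 TPM in KO and 37.1, 34.0 and 39.3 TPM in Parental libraries. The Parental libraries had the widest range and took in all the others. The log2 fold change was -0.07 ± 0.06 in DKO (edgeR adjusted p = 0.540) and -0.12 ± 0.06 in KO cells (edgeR adjusted p = 0.256).

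Phlda3 (chr1:135766085-135769134, plus strand) encodes a membrane-binding protein that competes with the kinase Akt for phosphoinositides. It had 59.0, 51.5 and 52.8 TPM in DKO, 48.2, 53.3 and 49.4 TPM in KO and 52.3, 53.3 and 62.9 TPM in Parental libraries. The groups overlapped in TPM, and in CPM the KO libraries (35.5, 40.1 and 38.1) lay just under the Parental ones (40.8, 42.5 and 47.6). Its log2 fold change was -0.08 ± 0.07 in DKO (edgeR adjusted p = 0.554) and -0.20 ± 0.07 in KO cells (edgeR adjusted p = 0.104).

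Trp53inp1 (chr4:11156441-11174379, plus strand) encodes a stress-induced nuclear protein that binds p53 and takes part in autophagy, and it was the member that changed most. It had 67.2, 72.6 and 99.2 TPM in DKO, 86.3, 72.1 and 73.5 TPM in KO and 57.5, 55.7 and 66.2 TPM in Parental libraries. No edited library overlapped a Parental one, although DKO library 1 and Parental library 3 were nearly level. Mean TPM was 79.7 ± 17.1 (SD, n = 3) in DKO, 77.3 ± 7.80 in KO and 59.8 ± 5.62 in Parental cells. Trp53inp1 rose 1.29-fold in DKO cells (interval 1.13 to 1.47, log2 fold change 0.37 ± 0.09, edgeR adjusted p = 0.0159) and 1.25-fold in KO cells (interval 1.10 to 1.43, log2 fold change 0.32 ± 0.09, edgeR adjusted p = 0.0384). The DKO call was lost without DKO library 3 (log2 fold change 0.21, adjusted p = 0.0664), Parental library 1 (0.105) or Parental library 2 (0.0703), and with DESeq2 (0.103) or limma on log2 TPM (0.0851 and 0.0865). The KO call was lost without KO library 1 (0.188), KO library 2 (0.0577), Parental library 1 (0.174) or Parental library 2 (0.131), with DESeq2 (0.148), with limma (0.115 and 0.116) and with library totals as the only scaling (0.0511).

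Sesn1 (chr10:41810574-41908436, plus strand) encodes sestrin 1, which restrains the growth-promoting kinase complex mTORC1. It had 9.88, 10.5 and 12.7 TPM in DKO, 10.1, 10.2 and 9.84 TPM in KO and 9.35, 9.83 and 10.2 TPM in Parental libraries. DKO library 3 stood above the rest, and the remaining 8 libraries lay within a narrow band. The log2 fold change was 0.10 ± 0.08 in DKO (edgeR adjusted p = 0.504) and -0.02 ± 0.08 in KO cells (edgeR adjusted p = 0.889). Cep57l1, its head-to-head neighbour on the other strand, had log2 fold changes of -0.12 ± 0.07 in DKO (edgeR adjusted p = 0.316) and -0.05 ± 0.07 in KO cells (edgeR adjusted p = 0.747).

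Zmat3 (chr3:32334792-32365665, minus strand) encodes a zinc finger protein that binds RNA and takes part in its splicing and decay downstream of p53. It had 34.7, 35.5 and 38.8 TPM in DKO, 38.7, 37.9 and 35.8 TPM in KO and 32.2, 30.3 and 34.0 TPM in Parental libraries. All 6 edited libraries were above the 3 Parental ones, in TPM and in CPM. Zmat3 rose 1.13-fold in KO cells (interval 1.06 to 1.21, log2 fold change 0.17 ± 0.05, edgeR adjusted p = 0.0292), while in DKO cells the log2 fold change of 0.14 ± 0.05 (1.10-fold, interval 1.03 to 1.17) did not pass (edgeR adjusted p = 0.0723). The KO call was lost without KO library 1 (adjusted p = 0.110), KO library 2 (0.0962), Parental library 1 (0.132) or Parental library 2 (0.112), and with limma on log2 TPM (0.0823 and 0.0827). It was lost too with a block by replicate number (edgeR adjusted p = 0.0574). It was also lost with the length trend removed, when the log2 fold change of Zmat3 was 0.07 in KO (adjusted p = 0.351) and 0.07 in DKO cells (adjusted p = 0.310).

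In DKO cells 1 of the 10 genes was called (10%), against 8.47% of all 14300 tested genes, of which 3.65% were higher and 4.82% lower. The median log2 fold change in DKO cells was 0.03 over the 10 genes, with 6 above 0 and 4 below, and -0.00 over all tested genes. In KO cells 2 of the 10 genes were called (20%), against 7.06% of all tested genes, of which 3.43% were higher and 3.64% lower. The median in KO cells was -0.00 over the 10 genes, with 5 on either side of 0, and -0.01 over all genes. The size of the change, as the median absolute log2 fold change, was 0.09 over the 10 genes and 0.11 over all genes in DKO cells, and 0.12 over the 10 genes and 0.11 over all genes in KO cells. With library totals as the only scaling, the 2 genes called in KO cells were Zmat3 (higher) and Cdkn1a (lower, adjusted p = 0.0485). Both comparisons use the same Parental libraries, so a like value in both is not independent evidence.

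**Figure D3:**
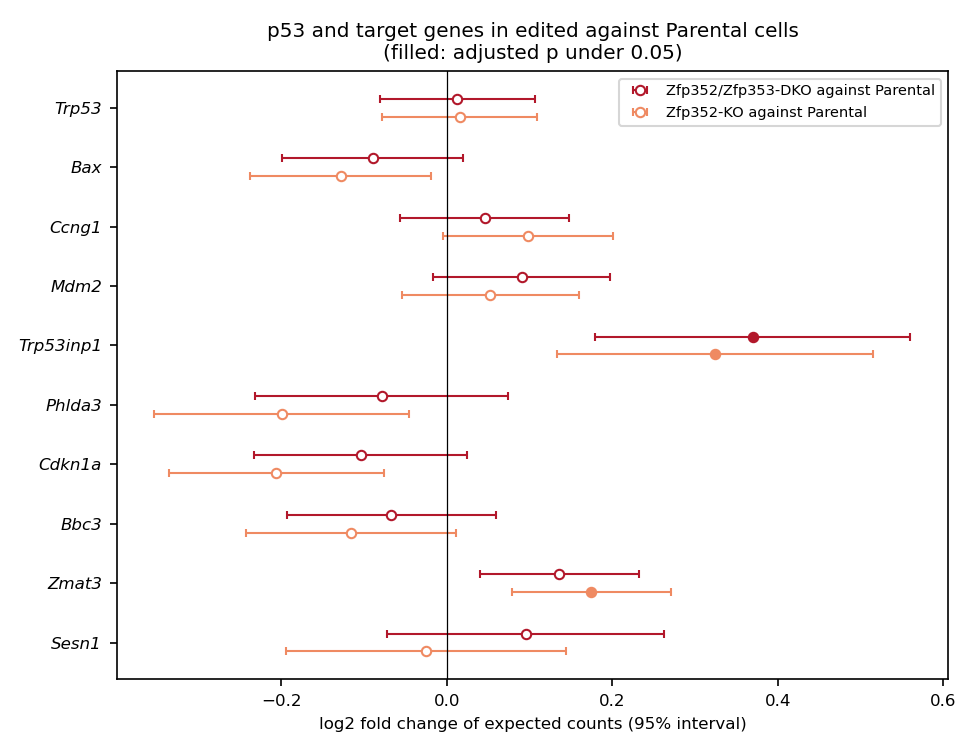
Log2 fold change of the 10 genes (y axis, ordered by Parental level) in DKO and KO cells against Parental cells (x axis), with 95% intervals; filled points passed an adjusted p of 0.05. Trp53inp1 is called in both comparisons (0.37 and 0.32) and Zmat3 in KO cells (0.17), and most other intervals cross 0.

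The fold changes tended to be higher in genes with longer transcripts. Bax, the shortest of the 10 (869 bases), was below 0 in both edited genotypes, and the longest, Trp53inp1 (5413 bases) and Zmat3 (7782 bases), were the furthest above it. All genes showed such a trend: in the shortest 10% of tested genes the median log2 fold change was -0.09 in DKO and -0.11 in KO cells, and in the longest 10% it was 0.11 in DKO and 0.14 in KO cells. Across all 14300 genes, Spearman's rho between length and the deviation of a library's log2 CPM from the 9-library mean came to -0.127, -0.0223 and 0.360 in DKO, 0.388, 0.188 and -0.0659 in KO and -0.307, -0.401 and -0.0818 in Parental libraries. The trend differed between libraries of one genotype as well as between genotypes. DKO library 3 and KO library 1, the highest libraries of their genotypes for Trp53inp1, also had the most positive values.

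With the length trend of each library removed, Trp53inp1 remained higher in DKO (log2 fold change 0.33, edgeR adjusted p = 0.00255) and in KO cells (0.27, edgeR adjusted p = 0.0197). Cdkn1a moved nearer to 0 in both, to -0.04 in DKO and -0.14 in KO cells (edgeR adjusted p = 0.719 and 0.152). Trp53 stood at 0.08 in DKO and 0.09 in KO cells (edgeR adjusted p = 0.140 and 0.129). Over the 10 genes, Spearman's rho between length and log2 fold change was 0.842 in both comparisons before the removal. After it, rho was still 0.515 in DKO and 0.539 in KO cells.

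**Figure D4:**
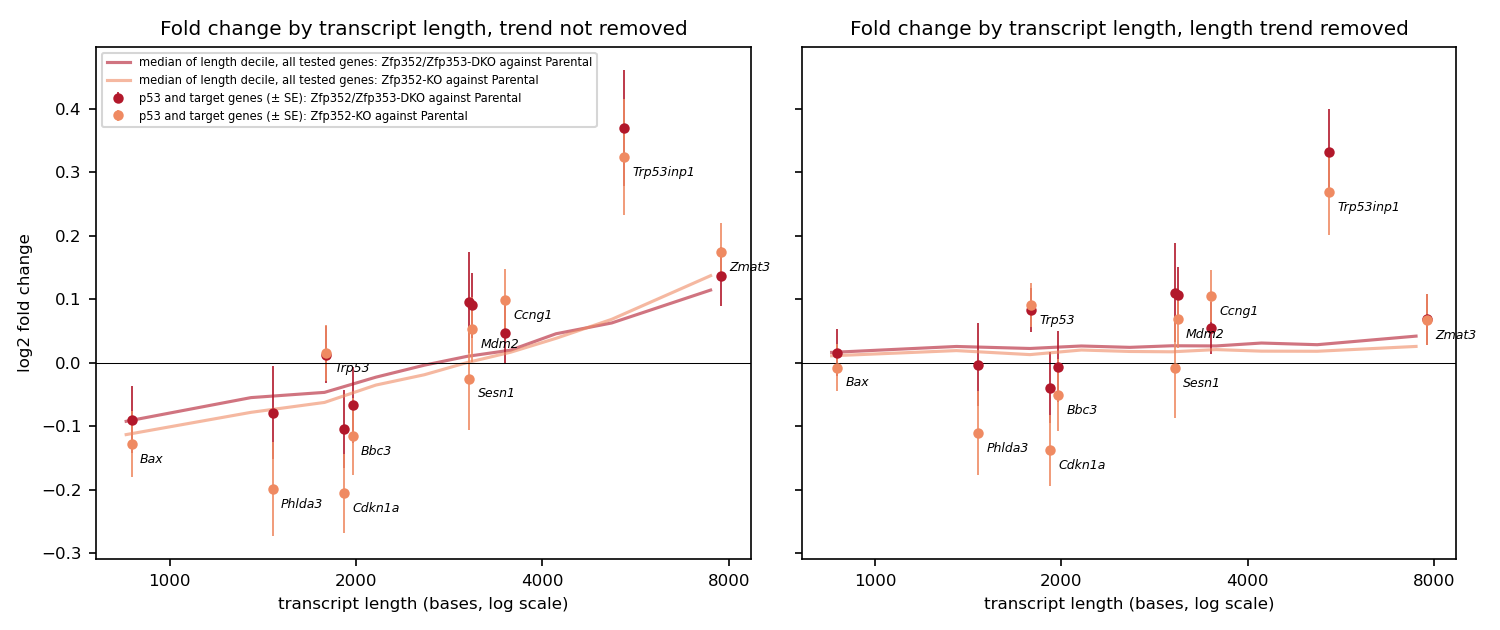
Log2 fold change (y axis) against transcript length in bases (x axis, log scale) for the 10 genes (points, ± SE) and the median of all tested genes in each 10% of lengths (lines), in DKO and KO cells against Parental cells. On the left the lines climb from about -0.1 to above 0.1 and most points follow them; on the right, with each library's length trend removed, the lines are flat and Trp53inp1 (0.33 and 0.27) stays above them.

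DKO and KO cells differ by label in the deletion of Zfp353, which was not analysed here, and their remaining Zfp352 counts were 1, 1 and 3 in DKO and 3, 8 and 10 in KO libraries. Between DKO and KO cells, 0 of the 10 genes were called, against 0.105% of all tested genes (15 of 14300), of which 0.014% were higher and 0.0909% lower. None reached an unadjusted p of 0.05 in edgeR (0 of 10), and DESeq2 and limma also called 0. Against Parental cells 2 of 10 were under this unadjusted p in DKO (2 higher) and 5 of 10 in KO cells (2 higher, 3 lower). The share of all tested genes under it was not counted. Between DKO and KO cells the log2 fold changes ran from -0.05 ± 0.05 for Ccng1 to 0.12 ± 0.07 for Phlda3, with edgeR adjusted p of 0.878 or more. Trp53inp1 differed by 0.05 ± 0.09 (interval -0.14 to 0.24), so differences of up to 1.18-fold lay within the interval. Without DKO library 3 the value was -0.11. The interval of Cdkn1a was -0.03 to 0.23 and that of Zmat3 -0.13 to 0.06.

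The pathway around the 10 genes was read from 4 lists. They were chosen with earlier results of these data known, so their shares of called genes are descriptions only. Of 19 tested p53 regulators, 4 rose and 0 fell in DKO cells (median log2 fold change 0.08), and 6 rose and 0 fell in KO cells (median 0.11). These are 21.1% and 31.6% of the list, beside 8.47% and 7.06% of all tested genes. Mdm4, which binds p53 beside Mdm2 and blocks its activity, had 101, 106 and 118 TPM in DKO, 116, 106 and 99.3 TPM in KO and 82.8, 77.9 and 92.6 TPM in Parental libraries, with no overlap between edited and Parental libraries. Mdm4 rose in DKO (log2 fold change 0.32 ± 0.06, edgeR adjusted p = 0.0013) and in KO cells (0.30 ± 0.06, edgeR adjusted p = 0.0036), and kept both calls in all 20 alternatives. Also higher in both were Sirt1, a deacetylase of p53 (0.25 in DKO and 0.22 in KO cells), and Chek1, a kinase of the DNA damage checkpoint (0.21 in DKO and 0.22 in KO cells). Of 20 alternatives, Chek1 lost its call in 8 in each comparison, and Sirt1 in 5 in DKO and 7 in KO cells. The damage kinases Atm and Atr and the kinase Hipk2, which phosphorylates p53, rose in KO cells (0.26, 0.23 and 0.37) and had 0.19, 0.20 and 0.30 in DKO cells, where they did not pass (edgeR adjusted p = 0.0908, 0.0634 and 0.0881). With the length trend removed, Atm had an adjusted p of 0.213 and Atr of 0.104 in KO cells. Hipk2 had a log2 fold change of 0.24 in KO cells without KO library 1 (edgeR adjusted p = 0.229), and lost its KO call in 9 of 20 alternatives. Rchy1, another ubiquitin ligase of p53, also rose in DKO cells (0.20 ± 0.06, edgeR adjusted p = 0.0416); it lies outside the rule for named genes and was added after its values were seen.

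Of 39 tested further p53 targets, 1 rose and 7 fell in DKO cells (median 0.01), and 0 rose and 5 fell in KO cells (median -0.02), or 20.5% of the list called in DKO and 12.8% in KO cells, against 8.47% and 7.06% of all tested genes. Igfbp3, a secreted binder of insulin-like growth factors, had 15.1, 16.2 and 16.5 TPM in DKO, 18.0, 21.9 and 19.5 TPM in KO and 46.4, 37.6 and 41.2 TPM in Parental libraries. Every edited library held well below every Parental one, and Igfbp3 fell by 1.43 ± 0.08 on the log2 scale in DKO (edgeR adjusted p = 2.0e-09) and by 1.12 ± 0.08 in KO cells (edgeR adjusted p = 3.0e-07). Sfn encodes 14-3-3 sigma, an epithelial protein that holds cells in G2, and had 56.5, 53.4 and 52.9 TPM in DKO, 62.4, 68.1 and 63.6 TPM in KO and 104, 98.8 and 106 TPM in Parental libraries. Sfn fell by 0.96 ± 0.06 in DKO (edgeR adjusted p = 2.5e-09) and by 0.71 ± 0.06 in KO cells (edgeR adjusted p = 4.8e-07), again with no overlap, and both genes kept their calls in all 20 alternatives.

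The other called targets moved less. Perp, a desmosome component of epithelia, fell by 0.41 in DKO and by 0.33 in KO cells. Gadd45b, a stress sensor, fell by 0.54 in DKO and by 0.46 in KO cells, and its paralog Gadd45g fell by 0.68 in DKO cells and had -0.33 ± 0.15 in KO cells (edgeR adjusted p = 0.181). Ddit4, an inhibitor of mTORC1, fell by 0.35 in DKO and by 0.47 in KO cells. In DKO cells the long non-coding RNA Pvt1 rose by 0.41 and Plk3, a stress kinase, fell by 0.21, both named after their values were seen. The trophectoderm and epithelial markers, whose summed levels are given above, were also lower in the edited genotypes: 4 of 8 tested fell in DKO and 4 of 8 in KO cells, against 4.82% of all tested genes lower in DKO and 3.64% in KO cells. Their part in the values of Igfbp3, Sfn and Perp was not tested.

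Of 13 tested BCL2 family genes other than Bax and Bbc3, 2 fell in DKO and 2 in KO cells (15.4% of the list in each, against 4.82% of all tested genes lower in DKO and 3.64% in KO cells), the pore-former Bak1 (by 0.25 in DKO and 0.20 in KO cells) and the anti-apoptotic Bcl2l1 (by 0.27 in DKO and 0.20 in KO cells). The family's median log2 fold change was -0.15 in DKO and -0.11 in KO cells. With the length trend removed, the KO calls of Bak1 (adjusted p = 0.0816) and Bcl2l1 (0.0948) were lost. Among 19 cyclins, kinases, pocket proteins and related inhibitors with which p21 works, 2 rose and 4 fell in DKO (median -0.01), and 1 rose and 2 fell in KO cells (median -0.02). These are 31.6% of the list called in DKO and 15.8% in KO cells, against 8.47% and 7.06% of all tested genes. Ccne1, the cyclin that activates Cdk2 at the entry to S phase, had 125, 126 and 134 TPM in DKO, 127, 131 and 125 TPM in KO and 154, 147 and 147 TPM in Parental libraries. It fell by 0.25 ± 0.05 in DKO (edgeR adjusted p = 0.0018) and by 0.27 ± 0.05 in KO cells (edgeR adjusted p = 0.0019), and kept both calls in all 20 alternatives. Cyclin D3 (Ccnd3) fell by 0.19 in both, and Rbl2, a pocket protein of the retinoblastoma family, rose by 0.37 in DKO and by 0.29 in KO cells. With the length trend removed, the KO calls of Ccnd3 (adjusted p = 0.0855) and Rbl2 (0.0641) were lost. In DKO cells Rb1 rose by 0.30, Cdkn1c, which encodes the p21 relative p57, fell by 0.41, and Ccnd2 fell by 0.45. These DKO calls were lost in 8 of 20 alternatives for Rb1, 4 for Cdkn1c and 12 for Ccnd2. Their KO values of 0.19, -0.32 and -0.23 did not pass (edgeR adjusted p = 0.172, 0.0527 and 0.308).

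None of the 4 lists had a called gene between DKO and KO cells by edgeR. At an unadjusted edgeR p under 0.05 there were 5 of 39 further targets, 1 of 13 BCL2 family genes, 0 of 19 regulators and 0 of 19 partners of p21. The share of all tested genes under that unadjusted threshold was not counted, so these counts have no background. The naming rule gave 20 pathway genes, of which Atm, Atr and Hipk2 had no DKO call and Gadd45g, Rb1, Cdkn1c and Ccnd2 no KO call. When a single library was left out, 9 lost a DKO call (edgeR adjusted p of 0.0526 to 0.229). Of the 16 with a KO call, 12 lost it (edgeR adjusted p of 0.0508 to 0.229). The libraries concerned were all but KO libraries 1 and 3 for DKO calls and all but DKO libraries 1 and 3 for KO calls. Over all tested genes, 444 of 1211 DKO calls and 208 of 1010 KO calls were kept without Parental library 1, the fewest for any omission.

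**Figure D5:**
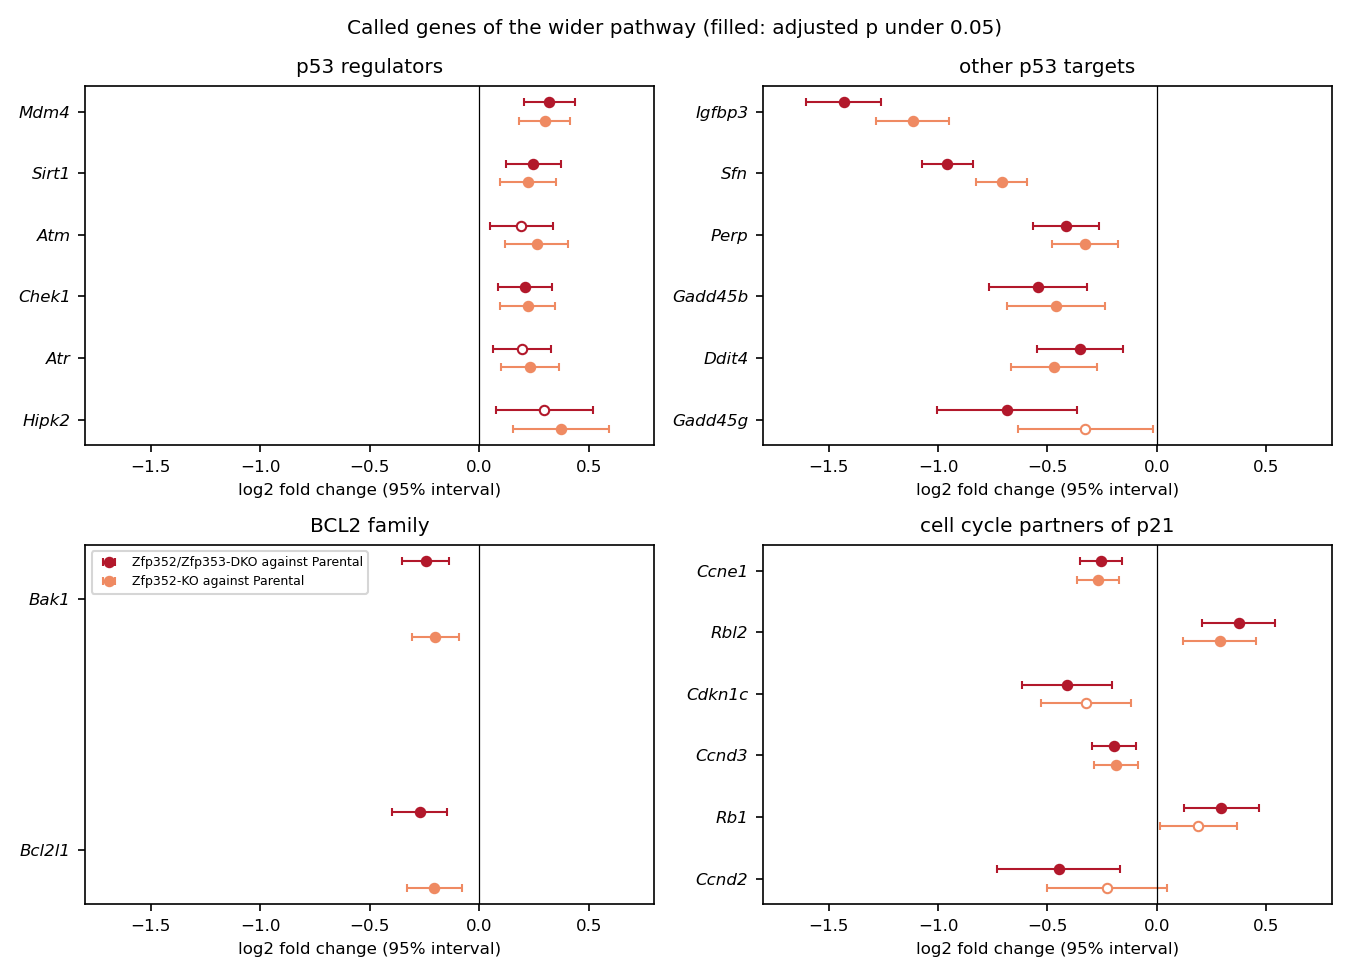
Log2 fold change with 95% interval (x axis) of up to 6 called genes named from each of 4 pathway lists (panels, y axis) in DKO and KO cells against Parental cells; filled points passed an adjusted p of 0.05. The 6 regulators drawn lie right of 0 and the 6 further targets drawn left of it (Rchy1 and Pvt1, called higher in DKO cells, and Plk3, called lower, are not drawn), with Igfbp3 (-1.43 in DKO, -1.12 in KO cells) and Sfn (-0.96 and -0.71) the furthest out.

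The pattern of Cdkn1a over the 9 libraries was most closely matched, among 14299 other tested genes, by Mapk3 (Pearson r of log2 CPM 0.969), Litaf (0.964) and Ccdc173 (0.964). These are the highest of many values over 9 libraries that share genotypes, and they are given as a description. None of the 3 was called against Parental cells by edgeR, with log2 fold changes of -0.06 in DKO and -0.12 in KO cells for Mapk3, -0.12 in DKO and -0.20 in KO cells for Litaf, and -0.36 in DKO and -0.68 in KO cells for Ccdc173 (lowest adjusted p = 0.0747). No other member of the 10 genes was among them.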

How the data were processed

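Gene tables of 9 libraries were used. Per the file headers, the authors deposited for each gene an expected count (an RSEM estimate that splits shared reads), TPM (a level scaled by transcript length and library depth) and FPKM, and the FPKM values were not used. The submitters' processing notes name Trim Galore 0.6.6, STAR 2.7.8a, RSEM 1.3.3 and the build mm10, but no annotation release or strand setting. RSEM divides ambiguous reads, so values of genes with close paralogs are uncertain.

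Expected counts were rounded and tested with edgeR 4.0.16 (R 4.3.3; filterByExpr, TMM, glmQLFit and glmQLFTest, two-sided), all 9 libraries in 1 fit by genotype with 6 residual degrees of freedom. Of 24411 genes, 14300 were tested, and calls are Benjamini-Hochberg adjusted p under 0.05 over them. SEs come from the F statistic. The 95% intervals use edgeR's total degrees of freedom, which add prior ones estimated over all genes to the 6 residual ones. They are therefore narrower than the residual ones alone would give. Libraries of a genotype differed beyond sampling noise (chi-square per degree of freedom 2.50 to 7.06 over 9 pairs). The length trend is a loess curve (span 0.3) of log2 CPM (prior count 1) on transcript length in each library, removed as an offset. Alternatives were RLE factors, library totals, other filters and thresholds, DESeq2 1.42.0, limma-trend 3.58.1 on log2(TPM + 1) and log2(TPM + 0.1), the 6 libraries compared, a replicate block and the omission of each library. TPM means have SDs over 3 libraries. The precision that 3 libraries at the depth given above allow is shown by the SEs and intervals.

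The 10 genes, the 4 pathway lists and the markers were chosen with earlier results of these data known. Named are the 10 genes, Zfp352, in each list up to 6 called genes with the smallest adjusted p in either comparison with Parental cells, the 3 genes most correlated with Cdkn1a, and genes on the other strand within 1000 bases. Coordinates and sequences come from RefSeq on GRCm38.p6 (mm10), and other-strand neighbours from GENCODE M21.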

Additional observations from a re-analysis of the deposited data

How the results depend on the processing

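Among values of single genes under the alternatives, 1201 kept both direction and call, 160 lost a call, 29 gained one and 10 turned sign, all 10 of genes that were not called or whose difference between DKO and KO cells was near 0. Calls among the 10 genes in DKO cells (1) were 0 with DESeq2 and with either limma setting, 2 at a threshold of 0.1, and 0 to 1 over the omissions of a library (0 without DKO library 3, Parental library 1 or Parental library 2). In KO cells (2) they were 1 with DESeq2 (Zmat3), 0 with either limma setting, 1 with the replicate block (Trp53inp1, while Zmat3 had an edgeR adjusted p of 0.0574), 1 with the length trend removed (Trp53inp1), 3 without a filter, with the stricter filter, at 0.1 and with only the 6 libraries (Cdkn1a added, lower), and 0 to 3 over the omissions (0 without KO libraries 1 or 2 or Parental libraries 1 or 2). Between DKO and KO cells they stayed at 0 throughout. Calls among all genes in DKO cells (1211, of which 522 higher and 689 lower) were 578 and 570 with limma and 1989 at 0.1, and ran from 449 (without Parental library 1) to 1337 over the omissions, with 646 without DKO library 2, 686 without DKO library 3 and 649 without Parental library 2. With the length trend removed they were 787 higher and 660 lower. In KO cells (1010, of which 490 higher and 520 lower) they were 359 (122 higher and 237 lower) and 352 with limma, 1882 at 0.1 and 569 with the replicate block, and ran from 210 (without Parental library 1) to 1552 (without DKO library 3), with 277 and 370 without KO libraries 1 and 2 and 382 without Parental library 2. Between DKO and KO cells (15) they were 66 without a filter, 27 with DESeq2, 1 and 1 with limma, 26 at 0.1, 3 with only the 6 libraries and 40 with the length trend removed, and ran from 3 to 21 over the omissions. Calls in the 4 lists in DKO cells (20) were 10 and 10 with limma and 8 to 23 over the omissions (8 without Parental library 1, 11 and 12 without DKO libraries 2 and 3). In KO cells (16) they were 6 and 7 with limma, 9 with the replicate block, 10 with the length trend removed and 4 to 19 over the omissions (5 and 6 without KO libraries 1 and 2, 4 and 8 without Parental libraries 1 and 2). DESeq2 gave no adjusted p for Zfp352 in KO cells.

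The log2 fold changes that turned sign were, in KO cells, Sesn1 with limma (0.034 on log2(TPM + 1), 0.037 on log2(TPM + 0.1)); in DKO cells, Bax with the length trend removed (0.016) and Trp53 without DKO library 1 (-0.012, the omissions giving up to 0.043). They were also, between DKO and KO cells, Trp53 with library totals (0.0038), without DKO library 3 (0.027) and without KO library 2 (0.016; omissions -0.033 to 0.027), Zmat3 with the length trend removed (0.00057), and Trp53inp1 without DKO library 3 (-0.11) and without KO library 2 (-0.0016; omissions up to 0.14). The causes were not tested. The labels do not say whether their numbers pair the libraries. Of 9 correlations between same-numbered libraries (-0.0736 to 0.105), 1 was over 0.1. In DKO and Parental cells 5 of 6 libraries, but 2 of 6 in each other pair of genotypes, correlated best with their own number. Whether same-numbered libraries shared a culture or batch was not tested. The replicate block left Trp53inp1 as the 1 call in DKO cells among the 10 genes, 867 calls among all genes and 15 in the lists there, and 11 calls among all genes between DKO and KO cells.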
